A study of Rattus norvegicus with 40 samples.

Results

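The genes described here are the stress genes driven by the transcription factors ATF4 and CHOP, followed in rat beta-like cells under inflammatory cytokines. They are Atf4 itself, Ddit3 (which encodes CHOP), Atf3, Cebpb, Trib3, Asns, Chac1, Nupr1 and Ppp1r15a, and were found by name among the gene symbols of the array annotation. The list itself was drawn up with earlier results of these data known. The list held 10 genes, of which 9 had values among the 16587 genes measured. The other listed gene, Sesn2, was not analysed here. Under cytokines 6 of the 9 genes were higher at 24 to 72 h (limma, adjusted p under 0.05), against 4.51% of all genes. Trib3 stood at 2.11-fold and Ddit3 at 1.85-fold of the control level. The count fell to 3 without the control array of 24 h and to 1 without the times 24 and 36 h. The largest single differences, 1.81 for Trib3 and 1.73 for Ddit3 on the log2 scale, lay at 36 h. Ppp1r15a was already called higher at 1 to 4 h, though that call was lost without any of 4 arrays.

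ATF4 is the main transcription factor of the integrated stress response. In this pathway, kinases that sense unfolded protein in the endoplasmic reticulum, missing amino acids, viral RNA or lack of heme phosphorylate the initiation factor eIF2. General protein synthesis then slows, while the Atf4 messenger RNA is translated more, so much of the control of ATF4 acts on translation, which expression arrays do not measure. ATF4 binds with C/EBP partners to composite sites in genes of amino acid supply and stress, among them the gene for CHOP, and PPP1R15A (GADD34) brings the phosphatase that reverses eIF2 phosphorylation. In rodent beta cells CHOP is known as a mediator of death under nitric oxide and endoplasmic reticulum stress.

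The cells were INS-1E, labelled INS1, an insulin-secreting line that derives from a rat insulinoma. Control cells were kept in medium alone, and treated cells received recombinant IL-1 at 10 units/ml with recombinant IFN-γ at 100 units/ml, over 13 times from 0 to 72 h. The control arm had 15 arrays, a pair each at 0 and 1 h and a single array at the 11 later times, and the cytokine arm had 25, a pair at 12 times and a single array at 10 h. All control arrays after 1 h carry replicate number 1. For some arrays the treatment field gives IFN-beta, where the titles and the protocol give IL-1, and the extraction text speaks of islets whereas each sample is labelled as the cell line. The values are deposited log2 signals. Array medians lay between 6.54 and 6.62 and pairwise correlations between arrays at 0.971 to 0.996. Of 7 beta cell markers measured, the mean log2 signals ran from 7.71 for the transcription factor Nkx6-1 to 14.24 for the insulin gene Ins1, and those of 6 leukocyte markers from 3.97 to 5.14. Levels of different probe sets are not on a common scale, so these means are given as a description. Gcg, the glucagon gene of alpha cells, had a mean of 8.59 over a range from 5.54 to 10.01.

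The promoters of 5 of the genes are shown because they differ in motifs known from this pathway. They were picked with the motif matches and the responses known, and the responses of different genes were not tested against each other. Each is the RefSeq sequence of rat build GRCr8 from 250 bases before to 50 bases after the start of the gene, written 5′ to 3′ along the gene. Capitals mark a motif match.
Trib3, chr3:161275484-161275783, minus strand: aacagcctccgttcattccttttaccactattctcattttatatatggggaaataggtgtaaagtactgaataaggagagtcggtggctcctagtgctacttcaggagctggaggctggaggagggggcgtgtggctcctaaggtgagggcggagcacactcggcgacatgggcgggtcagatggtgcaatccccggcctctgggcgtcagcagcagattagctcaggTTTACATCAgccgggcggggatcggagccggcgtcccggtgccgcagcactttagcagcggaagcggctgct
Chac1, chr3:126795881-126796180, plus strand: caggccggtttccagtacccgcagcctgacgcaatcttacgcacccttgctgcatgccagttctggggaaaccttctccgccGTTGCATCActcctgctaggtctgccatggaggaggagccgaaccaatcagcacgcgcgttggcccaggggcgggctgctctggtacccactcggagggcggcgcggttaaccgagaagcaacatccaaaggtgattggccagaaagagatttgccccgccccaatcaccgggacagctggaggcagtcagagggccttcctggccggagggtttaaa
Nupr1, chr1:190645852-190646151, minus strand: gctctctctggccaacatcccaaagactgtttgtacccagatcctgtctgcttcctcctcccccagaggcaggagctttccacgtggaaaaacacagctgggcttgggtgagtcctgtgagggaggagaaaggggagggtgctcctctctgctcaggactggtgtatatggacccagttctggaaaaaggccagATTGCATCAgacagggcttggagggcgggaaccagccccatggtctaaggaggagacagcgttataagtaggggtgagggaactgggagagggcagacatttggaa
Ppp1r15a, chr1:105139547-105139846, minus strand: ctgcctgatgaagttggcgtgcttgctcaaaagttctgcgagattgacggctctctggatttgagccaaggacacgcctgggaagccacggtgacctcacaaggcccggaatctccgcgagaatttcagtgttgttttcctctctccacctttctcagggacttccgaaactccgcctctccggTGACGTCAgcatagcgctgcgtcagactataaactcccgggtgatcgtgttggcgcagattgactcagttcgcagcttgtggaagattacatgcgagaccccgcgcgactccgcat
Ddit3, chr7:65001445-65001744, plus strand: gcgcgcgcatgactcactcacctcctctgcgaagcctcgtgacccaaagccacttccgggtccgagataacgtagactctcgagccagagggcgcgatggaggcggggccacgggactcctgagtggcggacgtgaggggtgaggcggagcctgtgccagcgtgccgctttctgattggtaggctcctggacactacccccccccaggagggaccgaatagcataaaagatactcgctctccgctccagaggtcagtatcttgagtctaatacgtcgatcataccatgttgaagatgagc
A C/EBP-ATF composite motif, searched on both strands as TGATGNAAN, occurs in 3.97% of 33469 rat promoters of this length. It was found in Trib3 at -22 from the start, in Chac1 at -168 and in Nupr1 at -56, each on the strand opposite to the gene. The cyclic AMP response element TGACGTCA, which CREB and ATF family dimers can bind and which 1.83% of the promoters hold, was found in Ppp1r15a at -66. Sequences were at hand for 8 of the 9 genes. For 7 the window is placed on the gene's outer start in the RefSeq gene table, while that of Asns lies 555 bases inside the gene and was not read for motifs. The windows of Ddit3, Atf4 and Cebpb held neither motif, which says only that these letters are absent from this window. The interferon-type motif TTCNNNGAA, in 8.87% of promoters, and the endoplasmic reticulum stress element, CCAAT and CCACG separated by 9 bases, in 0.0657%, matched none of the 7. Trib3 and Ppp1r15a, each with a match, were among the genes called under cytokines below, as were Ddit3 and Atf4 without a match, whereas Chac1 and Nupr1, with the composite motif, were not called in the 3 windows. The late difference of the uncalled Nupr1 (0.34) was nonetheless no smaller than that of the called Atf4 (0.30).

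Before any exposure the arms were alike within the spread. At 0 h, with 2 arrays an arm, limma called 0 of the 9 genes (0 at an unadjusted p under 0.05 as well), and 0% of all genes were called higher and 0% lower. The 9 differences ran from -0.16 for Cebpb to 0.27 for Nupr1, and their median was 0.03 against 0.00 over all genes. The other comparisons average the cytokine minus control difference over 1 to 4 h, 6 to 12 h and 24 to 72 h, each time weighted equally, and are called at an adjusted p under 0.05 over all 16587 genes. No control array serves more than 1 of the 3 windows, though all windows draw on a common residual variance.

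**Figure D1:**
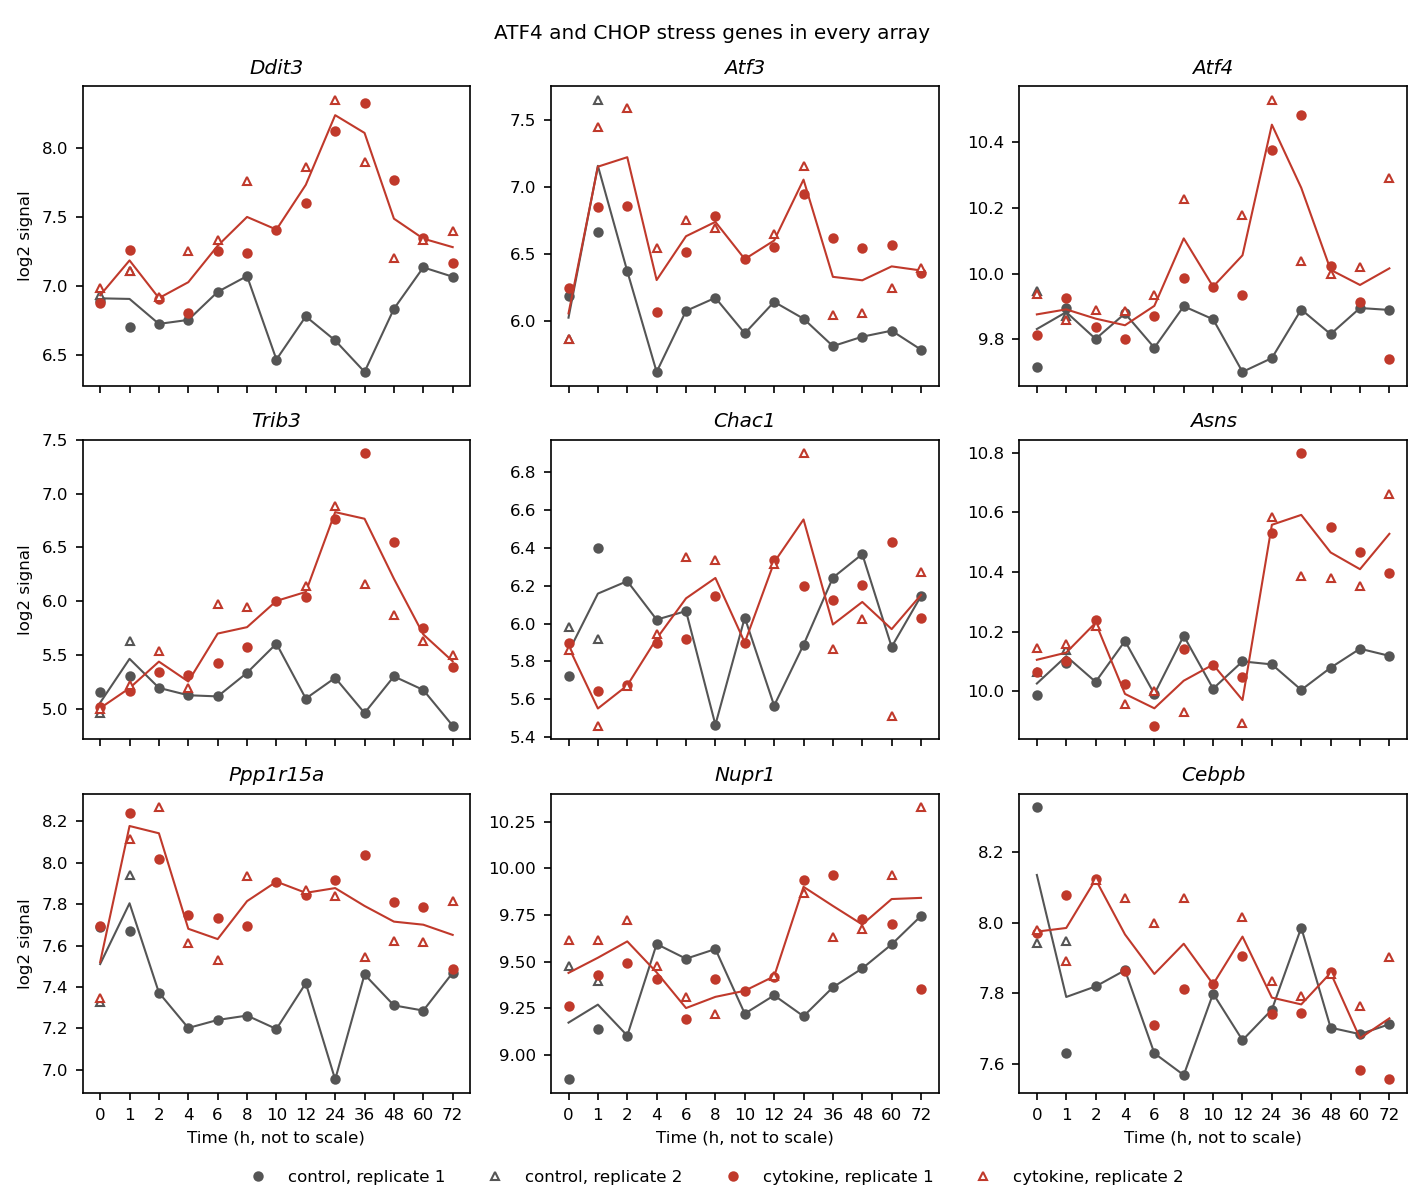
Log2 signal of the 9 genes in each of the 40 arrays (vertical axes, each on its own scale) at the 13 times (horizontal axis, equally spaced and not to scale); filled circles are replicate 1, open triangles replicate 2, grey control, red cytokine, and lines join the means. The cytokine arrays of Ddit3 and Trib3 climb to 24 and 36 h and come down again, those of Asns are high only from 24 h on, and Atf3 and Ppp1r15a are high at 1 to 2 h.

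Ddit3, which encodes the transcription factor CHOP, rose at 6 to 12 h and at 24 to 72 h, and its gap to the control was widest at 24 and 36 h. At 24 h the cytokine arrays read 8.12 and 8.35 and the control array 6.61. At 36 h they read 8.32 and 7.89 against 6.38, a difference of 1.73 (3.32-fold). By 48 h the cytokine arrays read 7.77 and 7.21 against 6.84, by 60 h 7.35 and 7.34 against 7.14, and at 72 h 7.17 and 7.40 against 7.07. The gap thus narrowed to 0.21 at the last 2 times, where part of the narrowing was in the control arrays, whose highest values of the late window were those of 60 and 72 h. The arms did not overlap in the late window, the lowest cytokine array (7.17) lying just above the highest control (7.14). How many of all genes show no such overlap was not counted, here or for the genes below.

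The Ddit3 difference over 24 to 72 h was 0.89 (SE 0.11, limma adjusted p 1.02e-05). At 6 to 12 h the 4 control arrays read 6.96, 7.07, 6.47 and 6.78 in order of time, and the 7 cytokine arrays had a lowest value of 7.24, a median of 7.41 and a highest of 7.86. The arms did not overlap there either, and Ddit3 rose by 0.66 (SE 0.13, adjusted p 0.00143). At 1 to 4 h the difference was 0.25 (adjusted p 0.618), not beyond the spread. In these bulk samples, more RNA in each cell and more cells with the RNA cannot be told apart. Averaged without 24 and 36 h, the late difference was 0.36 (adjusted p 0.23). On replicate 1 arrays alone the late and the 6 to 12 h calls were lost (adjusted p 0.0696 and 0.0768).

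Atf4, the gene of the pathway's central factor, moved much less at the RNA level. It read 10.38 and 10.53 under cytokines at 24 h against 9.74 in the control, a difference of 0.71, and 10.48 and 10.04 against 9.89 at 36 h. At 72 h the replicates stood apart, at 9.74 and 10.29 against a control of 9.89, so the late arms overlapped. Over 24 to 72 h Atf4 rose by 0.30 (SE 0.09, adjusted p 0.039). At 6 to 12 h the difference was 0.20 (adjusted p 0.305) and at 1 to 4 h 0.01 (adjusted p 0.989). The late call for Atf4 was lost without any of 9 arrays: control at 24 h (difference 0.19, adjusted p 0.338), 36 h (0.114) or 48 h (0.0552), cytokine replicate 1 at 36 h (0.0805) or 48 h (0.0647), or cytokine replicate 2 at 24 h (0.0746), 48 h (0.0569), 60 h (0.0678) or 72 h (0.0669). It was also lost without 24 and 36 h (difference 0.13, adjusted p 0.693) and in an additive model on the arrays of the window (0.30, adjusted p 0.103). The same held on replicate 1 arrays alone (0.26, adjusted p 0.279) and with the replicate number as a block (0.25, adjusted p 0.077).

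Atf3 encodes a stress-induced bZIP factor that can repress its targets. It was high at 1 h in medium alone too, at 6.66 and 7.65 in the control arrays against 6.19 and 5.87 in those of 0 h, and at 6.85 and 7.45 under cytokines. The cytokine arrays then stayed above the control, at 6.86 and 7.58 against 6.37 at 2 h and at 6.07 and 6.55 against 5.62 at 4 h. A second high stood at 24 h, with 6.95 and 7.16 against 6.02, where the difference was 1.04. From 6 h on no cytokine array overlapped the controls of its window, though in the late window the lowest cytokine array (6.04) nearly met the highest control (6.02). Over 24 to 72 h Atf3 rose by 0.61 (SE 0.16, adjusted p 0.0186). At 6 to 12 h the difference was 0.53 (adjusted p 0.0849) and at 1 to 4 h 0.51 (adjusted p 0.348), where the control arrays alone spanned 5.62 to 7.65. The 6 to 12 h difference was called in the additive model on the window's arrays (0.53, adjusted p 0.000696), on replicate 1 arrays alone (0.50, adjusted p 0.012) and without either control array of 1 h (0.53, adjusted p 0.0424). The 1 h arrays lie outside the 6 to 12 h window, so leaving 1 out moved only the estimated spread. The late call was lost without the control array of 24 h (difference 0.50, adjusted p 0.12) and without both 24 and 36 h (difference 0.50, adjusted p 0.259).

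Cebpb encodes C/EBPβ, a dimer partner of ATF4 and CHOP, and was not called in any window. The differences were 0.20 at 1 to 4 h (95% confidence interval -0.01 to 0.41), 0.23 at 6 to 12 h (0.03 to 0.43, adjusted p 0.182) and -0.00 at 24 to 72 h (-0.18 to 0.17). In the late window the 5 control arrays lay between 7.68 and 7.99 and the 10 cytokine arrays between 7.56 and 7.90.

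Trib3, a pseudokinase induced by ATF4 and CHOP that in turn binds ATF4, had the highest late difference of the 9 genes. Its cytokine arrays climbed from 5.42 and 5.97 at 6 h to 6.04 and 6.14 at 12 h and 6.77 and 6.89 at 24 h. At 36 h the replicates read 7.38 and 6.16, and at 48 h 6.55 and 5.87, so the replicates differed most where the mean was near its height. By 60 h they read 5.75 and 5.63 and by 72 h 5.38 and 5.50. The control arrays of 24 to 72 h read 5.29, 4.96, 5.30, 5.17 and 4.84 in order of time, all below the lowest cytokine array of that window. Trib3 rose by 1.07 at 24 to 72 h (SE 0.15, adjusted p 3.56e-05) and by 0.60 at 6 to 12 h (SE 0.17, adjusted p 0.031). The difference at 1 to 4 h was 0.03 (adjusted p 0.98).

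The 6 to 12 h call for Trib3 was lost without any of 6 arrays: control at 6 h (adjusted p 0.0827), 8 h (0.0568) or 12 h (0.23), or cytokine replicate 2 at 6 h (0.0687), 8 h (0.0654) or 12 h (0.0551). It was also lost on replicate 1 arrays alone (0.0856). The late call held without each array in turn and gave 0.67 (adjusted p 0.0547) without 24 and 36 h.

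Asns, the enzyme that makes asparagine, was called higher in the late window only. At the 8 times up to 12 h its difference lay between -0.18 and 0.20, and at 6 to 12 h the 4 control arrays (9.99, 10.19, 10.01 and 10.10) and the 7 cytokine arrays (9.89 to 10.14, median 10.00) overlapped. At 24 h the cytokine arrays read 10.53 and 10.59 against 10.09, at 36 h 10.80 and 10.39 against 10.01, and at 72 h still 10.40 and 10.66 against 10.12. The late arms did not overlap, with 10.35 as the lowest cytokine and 10.14 as the highest control value. Asns rose by 0.42 at 24 to 72 h (SE 0.07, adjusted p 0.000368), a call that held under every alternative tried. The difference at 6 to 12 h was -0.06 (adjusted p 0.776). The change between these windows was itself beyond the spread, at 0.49 (SE 0.11, adjusted p 0.0178), although that call was lost without the control array of 8 h (0.062) or 12 h (0.0514).

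Chac1 encodes an enzyme that breaks down glutathione. Its values scattered in both arms. The cytokine arrays read 5.64 and 5.46 at 1 h against controls of 6.40 and 5.92, then 6.14 and 6.34 at 8 h against 5.47, and 6.20 and 6.90 at 24 h against 5.89. At 60 h the replicates read 6.43 and 5.51 on either side of the control at 5.88. Chac1 was not called in any window, with differences of -0.42 (adjusted p 0.354), 0.37 (adjusted p 0.174) and 0.05 (adjusted p 0.877). The change from 1 to 4 h to 6 to 12 h was 0.79 (95% confidence interval 0.32 to 1.25, adjusted p 0.109), and it was called without the control array of 4 h (0.95, adjusted p 0.0412) or without either cytokine array of 60 h (0.79, adjusted p 0.0356). The 60 h arrays do not enter this change, so leaving 1 out moved only the estimated spread.

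Nupr1, a small stress-induced chromatin protein, read 9.94 and 9.87 under cytokines at 24 h against 9.21. At 72 h the replicates read 9.36 and 10.33 against 9.74, the widest spread of any pair for this gene. At 6 to 12 h the difference was -0.07 (adjusted p 0.868). The late difference was 0.34 (95% confidence interval 0.08 to 0.60, adjusted p 0.108), and the arms overlapped. Without cytokine replicate 1 of 72 h, the late difference of Nupr1 was called (adjusted p 0.00666).

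Ppp1r15a encodes GADD34, the subunit that directs a phosphatase to eIF2 and so closes the feedback loop. Its mean lay above control at every time from 1 h on, though single times were not tested. At 1 h the cytokine arrays read 8.24 and 8.11 against 7.67 and 7.94, and at 2 h 8.02 and 8.27 against 7.37. At 24 h they read 7.92 and 7.84 against 6.95, the lowest of its control values, and the difference was 0.92. Control and cytokine arrays did not overlap at 6 to 12 h or at 24 to 72 h, but did at 1 to 4 h. In the late window the lowest cytokine array (7.49) lay just above the highest control (7.47). Ppp1r15a lay above control by 0.54 at 1 to 4 h (SE 0.12, adjusted p 0.0141), by 0.52 at 6 to 12 h (SE 0.11, adjusted p 0.00337) and by 0.45 at 24 to 72 h (SE 0.10, adjusted p 0.00352). Mean control levels were 7.51 at 0 h, 7.80 at 1 h, 7.28 at 6 to 12 h and 7.30 at 24 to 72 h. The cytokine means were 7.52, 8.18, 7.79 and 7.75. The change of either arm from 0 h was not tested.

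The early call for Ppp1r15a was lost without the control arrays of 1 h replicate 1 (adjusted p 0.0551), 2 h (0.251) or 4 h (0.0781), or cytokine replicate 2 of 2 h (0.0545), in the additive model (0.0918) and on replicate 1 arrays alone (0.266). The late call was lost without the control array of 24 h (difference 0.33, adjusted p 0.0772) and without 24 and 36 h (0.33, adjusted p 0.184), while the 6 to 12 h call held under every alternative tried.

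**Figure D2:**
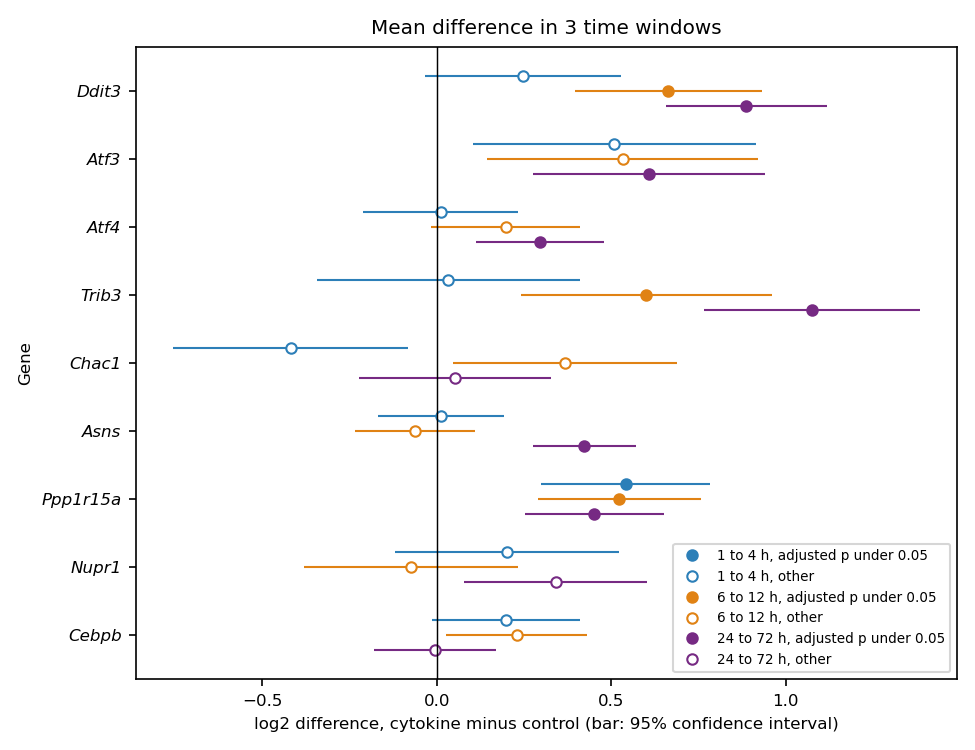
Cytokine minus control log2 difference (horizontal axis) of the 9 genes in the windows of 1 to 4 h, 6 to 12 h and 24 to 72 h; filled points have an adjusted p under 0.05 and bars are 95% confidence intervals. Trib3 and Ddit3 lie farthest right in the late window, and the bars of Asns, Atf4 and Nupr1 clear 0 only there. Ppp1r15a is filled in all 3 windows.

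Counted by window, the genes called higher grew in number while none was called lower in these windows. At 1 to 4 h 1 of 9 was higher (Ppp1r15a), where 1.44% of all genes were called higher and 0.0482% lower. At 6 to 12 h 3 of 9 were higher (Ddit3, Trib3 and Ppp1r15a), against 4.94% of all genes higher and 4.11% lower. At 24 to 72 h 6 of 9 were higher (Ddit3, Atf3, Atf4, Trib3, Asns and Ppp1r15a), against 4.51% higher and 4.22% lower. The median difference of the 9 genes was 0.20, 0.37 and 0.42 in the 3 windows, and that of all genes -0.02, -0.03 and -0.04. The late count depended on the first times of its window. Without 24 and 36 h 1 of 9 was called (Asns), while 393 genes in all were called higher in place of 748, and without the control array of 24 h 3 of 9 were called (Ddit3, Trib3 and Asns).

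A higher count in a later window does not by itself show a change between windows. That change was called for 0 of the 9 genes from 1 to 4 h to 6 to 12 h (3 at an unadjusted p under 0.05, namely Chac1, Trib3 and Ddit3), where 1.07% of all genes were called higher and 0.163% lower. From 6 to 12 h to 24 to 72 h it was called for Asns only, where 0.862% of all genes were called higher and 1.43% lower. At an unadjusted p under 0.05 there were 3, namely Asns, Nupr1 and Trib3. For Ddit3 that later change was 0.22 (95% confidence interval -0.13 to 0.58), for Trib3 0.48 (0.00 to 0.95) and for Nupr1 0.41 (0.01 to 0.82). In medium alone, control arrays of 24 to 72 h against those of 1 to 12 h gave limma calls for 0 of the 9 (0 at an unadjusted p under 0.05), against 0.392% of all genes higher and 0.808% lower. The largest such control difference was that of Atf3, at -0.32 (adjusted p 0.378).

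**Figure D3:**
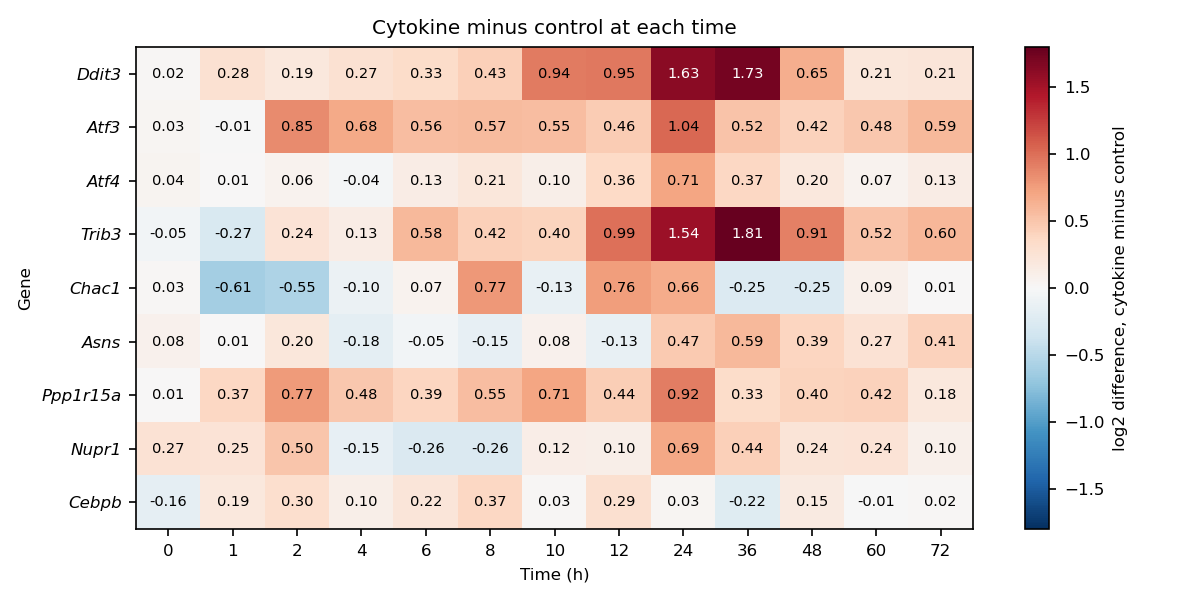
Mean cytokine minus control log2 difference of each gene (rows) at each time (columns, h), with the value printed in each cell and red for higher under cytokines. The 24 h column is positive for all 9 genes, from 0.03 for Cebpb to 1.63 for Ddit3, and the Ddit3 and Trib3 rows peak at 36 h.

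The time of the largest difference in size fell at 36 h for Ddit3, Trib3 and Asns, at 24 h for Atf3, Atf4, Ppp1r15a and Nupr1, and at 8 h for Chac1 and Cebpb. Most times have 1 control array, so a peak time carries no error of its own. The highest mean cytokine level of Ddit3 and Trib3 was at 24 h (8.24 and 6.83), not 36 h. The single control array of 36 h, low for both genes (6.38 and 4.96), moved the largest difference of the means there. With the mean of the window's controls in its place, the largest differences of Ddit3 and Trib3 were at 24 h, at 1.43 and 1.72. The replicates also parted on this point. Replicate 1 alone put the peaks of Ddit3 and Trib3 at 36 h (1.94 and 2.42), where its cytokine levels were also highest (8.32 and 7.38). The replicate 2 cytokine arrays alone put the peaks of both genes at 24 h (1.74 and 1.60). Atf4 and Nupr1 peaked at 24 h in each of these ways of counting. For Atf3 and Ppp1r15a the highest cytokine levels came early, at 2 h (7.22) and 1 h (8.18), whereas their largest differences stood at 24 h. With window means of the controls the largest difference of Ppp1r15a was at 1 h, and on replicate 2 cytokine arrays alone those of both genes were at 2 h.

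Across the 13 times the differences of some genes ran together, which is given as a description because all share the same arrays. Pearson correlations were 0.87 between Ddit3 and Trib3, 0.84 between Ddit3 and Atf4 and 0.85 between Atf4 and Trib3. Atf3 and Ppp1r15a, the pair with high early levels, had 0.75, Asns and Nupr1 0.72, and Ddit3 and Cebpb -0.30. Outside the listed genes, the 5 whose 13 differences were most like those of Ddit3 were Lyn (0.90), Mcoln3 (0.89), Eif4b (0.88), Krt80 (0.87) and Golga5 (0.86). For Atf3 they were Klf3 (0.88), Tob2, Med28, Mapkapk2 and Tsg101 (0.82).

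The rest of the pathway was read from 5 lists, of which 2 genes were called at 1 to 4 h, Edem1 (0.56, adjusted p 0.0306) and Jun. Among 20 other stress genes that ATF4 or CHOP can induce, 6 were higher and 0 lower at 24 to 72 h, against 4.51% and 4.22% of all genes. The list median was 0.18. Gadd45a, a growth arrest gene, was higher by 0.62 (SE 0.10, adjusted p 0.000379), at 8.65 ± 0.10 (SD, n = 5) in control and 9.27 ± 0.27 (SD, n = 10) in cytokine arrays. At 0 h its cytokine arrays already read 9.46 and 9.02 against 8.80 and 8.87 in control, a gap that limma did not call. Cebpg, whose product dimerises with ATF4, rose by 0.44 (adjusted p 0.000416), and Gdf15, a secreted stress hormone, by 0.66 (adjusted p 0.000515). At 6 to 12 h 3 of the 20 were higher, at 0.48 for Gadd45a, 0.37 for Cebpg and 0.55 for Gdf15 (adjusted p 0.0129, 0.0082 and 0.0095), and 1 was lower, the lipoprotein receptor gene Vldlr, at -0.69. The 6 to 12 h calls of Gdf15 and Gadd45a were lost without the control array of 12 h (0.0696 and 0.098), that of Gadd45a also without either array of 10 h (0.0551). The 6 to 12 h call of Cebpg was lost on replicate 1 arrays alone (0.0653), and its late call was lost without 24 and 36 h (0.28, adjusted p 0.137).

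Of 19 further genes of amino acid supply that ATF4 is known to induce, 0 were called at 24 to 72 h by limma (2 at an unadjusted p under 0.05), with a median of 0.08, and at 6 to 12 h 1 was lower. That gene, Aldh18a1, an enzyme of proline synthesis, fell by 0.26 (adjusted p 0.0289). Over all genes 4.51% were called higher and 4.22% lower at 24 to 72 h, and 4.94% and 4.11% at 6 to 12 h. At such shares few or none of 19 genes would be called, so these counts do not set the list apart. Of the 13 eIF2 kinase, eIF2 and exchange factor genes, Eif2b1, a subunit of the exchange factor, fell by 0.24 at 6 to 12 h (adjusted p 0.0321). Dnajc3, an inhibitor of eIF2 kinases in the endoplasmic reticulum, fell by 0.43 at 24 to 72 h (adjusted p 0.0356), and 0 of this list were called higher in either window. The call of Aldh18a1 was lost without any of 5 arrays, the controls of 6, 8 and 12 h and the replicate 2 cytokine arrays of 8 and 12 h (adjusted p 0.0632 to 0.143). That of Eif2b1 was lost without any of 8, all 4 controls, the cytokine array of 10 h, replicate 1 of 12 h and replicate 2 of 6 and 8 h (0.0631 to 0.147). That of Dnajc3 was lost without any of 12, all 5 controls, both cytokine arrays of 24 and 72 h and replicate 1 of 36, 48 and 60 h (0.0503 to 0.105), and without both 24 and 36 h (0.153). The additive model and replicate 1 arrays alone also lost the calls of Aldh18a1 (0.0574 and 0.198) and Eif2b1 (0.086 and 0.218).

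The other arms of the unfolded protein response, those of IRE1 and ATF6, were mostly lower in the late window. Of 13 genes 8 were lower and 1 was higher (Ern1, the gene of IRE1, by 0.36) at 24 to 72 h, against 4.22% and 4.51% of all genes. The list median was -0.40 beside 0.42 for the ATF4 and CHOP genes. Creld2, a chaperone-like secreted protein, fell by 0.79 (SE 0.08, adjusted p 8.84e-07), from 9.20 ± 0.16 (SD, n = 5) to 8.41 ± 0.16 (SD, n = 10). Sdf2l1 of the endoplasmic reticulum chaperone complex fell by 0.90 (SE 0.10, adjusted p 2.23e-06), and Hsp90b1, the chaperone GRP94, by 0.43 (adjusted p 0.000202). At 6 to 12 h 0 of the 13 were lower and 1 was higher, Edem1, a factor of protein degradation, by 0.45 (adjusted p 0.0253), a call lost without any of 7 arrays, the controls of 6, 8 and 10 h, the cytokine array of 10 h and replicate 1 of 6, 8 and 12 h (0.0524 to 0.182), and in the additive model (0.0872). In medium alone 3 of the 13 (Creld2, Hspa5 and Manf) rose between 1 to 12 h and 24 to 72 h and the list median was 0.29, so the late control level of this list was itself not constant.

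Among 12 other factors of the C/EBP and CREB/ATF families and their partners, 1 was called, Jun, a partner of ATF3. It rose by 1.05 at 1 to 4 h (adjusted p 0.000621) and by 0.86 at 6 to 12 h (SE 0.16, adjusted p 0.000985), and at 24 to 72 h limma called 0 of this list (1 at an unadjusted p under 0.05). Beta cell markers moved in the same windows: of 7 measured, 3 were lower at 6 to 12 h and 5 at 24 to 72 h, against 4.11% and 4.22% of all genes. Their late median was -0.33. Of 4 markers of other islet endocrine cells 1 was lower in each of these windows, namely Gcg, at -0.69 (adjusted p 0.00699) and -2.80 (adjusted p 9.27e-12), the latter the lowest late difference of all genes. Of 6 leukocyte markers and of 7 markers of fibroblasts, endothelium, acinar and duct cells, 0 were called in these windows (1 leukocyte marker at an unadjusted p under 0.05 at 24 to 72 h). The part of these markers in the differences of the ATF4 and CHOP genes was not tested.

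**Figure D4:**
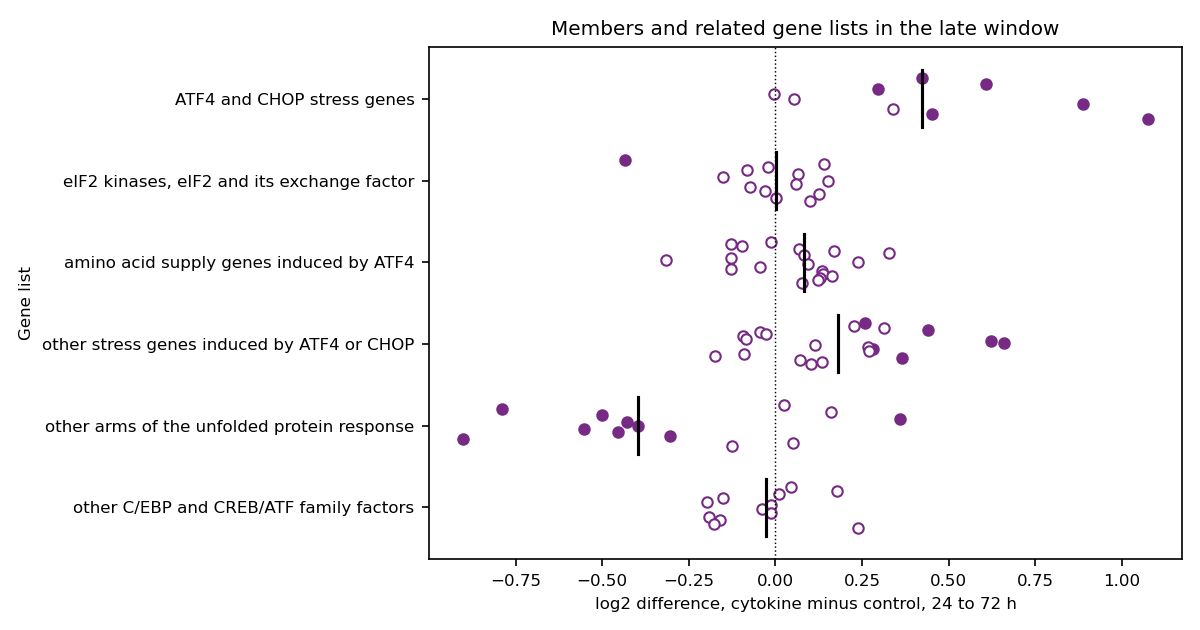
Late (24 to 72 h) cytokine minus control log2 difference (horizontal axis) of every measured gene of the ATF4 and CHOP list and of the 5 related lists; filled points have an adjusted p under 0.05 and the short black line is the list median. Points of the ATF4 and CHOP genes lie mainly to the right of 0, those of the other unfolded protein response arms mainly to the left.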

How the data were processed

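Gene expression was measured on Affymetrix Rat ST arrays hybridised with total RNA of INS-1E cells. The authors deposited a table of log2 signals by probe set and array; the log2 scale was read from the values, and how they were background corrected and normalized is not given in the sources here. Of 19239 probe sets, 16592 carried 1 gene symbol and 2647 were unnamed. Symbols were updated through RefSeq gene numbers (3326 changed), Nupr1 was matched by its symbol, and the brightest of several probe sets was kept, which left 16587 genes with no filter on dim ones.

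limma 3.58.1 (R 4.3.3) was fitted to all 40 arrays with 1 coefficient per treatment and time, which leaves 14 residual and 6.05 prior degrees of freedom. Groups of 1 array were thus assumed to vary like the others. P-values were adjusted by Benjamini-Hochberg over all genes, and the threshold was 0.05. The labels do not say that replicates came from separate cultures, so p-values reflect only how much these arrays vary, which may be technical. Precision is limited by how few arrays there are.

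The members and lists were chosen with earlier results of these data known. The named genes were all members, from each list up to 3 called genes by smallest p at 6 to 12 h and at 24 to 72 h, and the 5 genes most like Ddit3 and Atf3. Genes named beside these (such as Vldlr, Ern1, Hyou1, Hspa5, Manf and the markers) were named after their values were seen. Promoters are RefSeq sequences. The fit was tested on simulated data. The alternative settings were quantile normalization, a block for the replicate number, median centring, the dimmest genes (1 of every 3) left out, trend and robust moderation, array weights (statmod 1.5.0), an additive model on a comparison's arrays, replicate 1 arrays only, each array left out and, added after seeing the data, the late window without 24 and 36 h.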

Additional observations from a re-analysis of the deposited data

Results flagged for a closer look

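Between 6 to 12 h and 24 to 72 h the cytokine minus control difference changed, by limma's test of that change with Benjamini-Hochberg adjustment, for Asns by 0.49 (adjusted p 0.0178). Of the other arms of the unfolded protein response it changed for Creld2 by -0.80 (adjusted p 0.000908), Edem1 by -0.96 (0.00236), Sdf2l1 by -0.71 (0.0141), Ern1, the gene of the sensor IRE1, by 0.58 (0.0394) and Hyou1, a chaperone, by -0.54 (0.0452). The Edem1 difference went from 0.45 to -0.50, and that of Creld2 from 0.01 to -0.79. Control levels moved too: mean Creld2 was 8.67 at 6 to 12 h and 9.20 at 24 to 72 h in control arrays, and 8.67 and 8.41 in cytokine arrays. For Sdf2l1 the means were 7.35 and 7.79 in control and 7.16 and 6.89 in cytokine arrays, and for Edem1 9.76 and 9.83 in control and 10.19 and 9.33 in cytokine arrays. The call of Sdf2l1 was lost without the control array of 6 h (adjusted p 0.0691). Ern1 and Hyou1 lay near the threshold, and their calls were lost without any of 22 and 24 of the 40 arrays.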

How the results depend on the processing

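Of 3872 refits of 82 gene results, 3736 stayed on their side of the threshold, 128 lost the call and 8 gained it. Many of the results were not called to begin with, and leaving out an array from outside a comparison cannot move its difference. The share that stayed is thus no measure of how firm the calls are. A called difference changed sign in 0 of the refits, and uncalled differences changed sign in 79. Replicate numbers were not treated as pairs in the main fit, although same-numbered arrays tended to deviate together. Deviations from the group means correlated above 0.1 in 68 of 91 pairs of groups (from -0.17 to 0.43, median 0.21). The median correlation was positive for 14 of the 14 groups with both numbers. All control arrays after 1 h carry replicate number 1, so the main fit does not fully separate replicate number from treatment. With the replicate number as a block the late call of Atf4 was lost (0.25, adjusted p 0.077), the only call it changed among the 82 gene results. Calls of other genes named here were not refitted. Over all genes the block gave 26 lower at 1 to 4 h (8 without it), 1034 lower at 6 to 12 h (682), 97 lower for the change from 1 to 4 h to 6 to 12 h (27), 275 higher and 359 lower for the change to 24 to 72 h (143 and 237), and 339 higher and 503 lower in control over time (65 and 134). Quantile normalization gave 13 lower at 1 to 4 h and 109 higher in control over time, and leaving out dim genes 241 lower there. At 1 to 4 h the additive model called 45 higher and 0 lower (239 and 8), and replicate 1 arrays 20 and 0; both called 0 members higher (1). Replicate 1 arrays gave 351 lower at 6 to 12 h. Without 24 and 36 h, chosen after seeing the data, the late window gave 393 higher, 221 lower and 1 member. The additive model and the replicate 1 fits used fewer arrays. Without 24 and 36 h the fit kept all 40 arrays and only averaged the late difference over fewer times. The cause of the moves was not tested.

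Without each array in turn, counts over all genes ranged at 0 h from 0 to 57 higher and 0 to 35 lower (the high values without control replicate 2 of 0 h), at 1 to 4 h from 90 (without control 4 h) to 273 higher and 5 to 79 lower (79 without control replicate 2 of 1 h), at 6 to 12 h from 346 (without control 12 h) to 746 lower, and at 24 to 72 h from 403 (without control 36 h) to 745 lower. The change to 6 to 12 h ranged from 104 (without control 2 h) to 306 higher and 5 to 113 lower, the higher values without control 4 h. The change to 24 to 72 h ranged from 76 (without control 6 h) to 194 higher, and control over time from 4 to 78 higher and 16 to 153 lower, the lowest without control 72 h. Members called higher ranged from 0 to 1 at 1 to 4 h, 2 to 4 at 6 to 12 h, 3 to 7 at 24 to 72 h, 0 to 1 for the change to 6 to 12 h and 0 to 1 for the change to 24 to 72 h.

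Peak times moved as follows. With window means of controls they were 24 h for Ddit3 and Trib3, 1 h for Chac1 and Ppp1r15a and 2 h for Cebpb. On replicate 1 they were 12 h for Chac1 and 1 h for Cebpb, and on replicate 2 cytokine arrays 24 h for Ddit3, Trib3 and Chac1, 2 h for Atf3 and Ppp1r15a and 72 h for Asns. Trib3 and Chac1, among the dimmer members, had means at the 33.1 and 39.7 percentile of all genes, and signal over background was not given.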
